A study of Mus musculus with 8 samples.

Results

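The ER J-domain co-chaperones described here are Dnajb9, Dnajb11, Dnajc3, Dnajc10, Dnajc1, Dnajb12, Dnajb14 and Dnajc16, 8 genes of the 16538 in the expression table, chosen by symbol as J proteins resident in the endoplasmic reticulum (ER). All 8 were found under these symbols, and all 8 passed the filter on low values. They were measured by RNA-seq in DN3 thymocytes (double-negative stage 3, lacking CD4 and CD8), the immature T cells in which the TCRβ chain is first tested, sorted from C57BL/6 mice of 6 weeks. The control libraries (n = 4) came from Sel1l-f/f mice and the Sel1l CKO libraries (n = 4) from Sel1l-f/f hCD2cre+ mice, so every animal carried the floxed Sel1l alleles and only the CKO carried the CD2-driven iCre, which acts in lymphoid progenitors and their progeny. SEL1L is the adaptor of the HRD1 ubiquitin ligase in ER-associated degradation (ERAD), and the comparison asks which transcripts differ in DN3 cells when a gene of this route for misfolded ER proteins is targeted.

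J proteins are the co-chaperones of Hsp70 chaperones. Their J domain stimulates ATP hydrolysis by the Hsp70, which closes the chaperone on its client, and the rest of the protein decides which client or location is served. In the ER lumen the Hsp70 is BiP (Hspa5), and its J proteins send clients towards folding, export or ERAD, while a few membrane-bound J proteins turn their J domain to the cytosol and work with cytosolic Hsp70. Several of these genes are known targets of the unfolded protein response (UPR), the transcriptional programme switched on by the sensors IRE1, PERK and ATF6.

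Between 32900253 and 50401359 reads on genes per library were estimated from the deposited values. Levels are given as RPKM, reads per kb of gene span scaled to the size of the library, and fold changes are of CKO over control. Sel1l measured 1.83, 1.66, 1.61 and 1.57 RPKM in the control libraries (replicates 1 to 4, as throughout) and 0.917, 0.876, 1.32 and 1.23 RPKM in the Sel1l CKO libraries, lower in every CKO library with reads remaining in each. Its log2 fold change was −0.64 (SE 0.14, limma adjusted p = 0.0429). That call was kept without CKO replicate 3 or 4 and was lost when any other single library was left out, with adjusted p from 0.0834 to 0.123. Compared only among replicates 1 and 2, CKO differed from control by −0.95 on the log2 scale, against −0.32 among replicates 3 and 4. These values count reads over the whole gene and do not resolve its floxed part. The paper describes depletion with this Cre as efficient, citing Sel1l quantitative PCR and SEL1L western blots of sorted DN3 and DN4 cells. The 13 DN3 markers examined, Ptcra, Rag1 and Il2ra among them, were detected in both genotypes and 0 passed the test. Their median log2 fold change was −0.26, and 2 of the 13 had a positive one. For 4 (Notch3, Cd3e, Cd3g and Bcl11b) every CKO library lay below every control library, as held for 6.32% of tested genes. The summed level of the 13 was 690 to 806 RPKM in control and 639 to 661 RPKM in CKO. Marker lists of myeloid, NK, erythroid and stromal cells summed to at most 3.08 RPKM in any library. The myeloid sum was nearly all Lyz2, at 2.11 to 2.44 RPKM in control and 0.655 to 1.54 RPKM in CKO, without overlap. Itgam and Csf1r were near 0. The NK sum was nearly all Gata3, at 2.42 to 3.08 RPKM in control and 2.54 to 3.02 RPKM in CKO. Of B cell genes, Cd79b had a mean of 9.07 RPKM in control and 6.89 RPKM in CKO, with every CKO library below every control library, while Ms4a1, Ebf1 and Pax5 were near 0. The plasma cell list summed to 8.39 to 12.6 RPKM in control and 10.2 to 29.5 RPKM in CKO, nearly all from Mzb1, itself a cofactor of ER chaperones, while Jchain, Sdc1 and Prdm1 were under 0.1 RPKM in the mean of each genotype. In bulk RNA, fewer cells of a type and less RNA per cell cannot be told apart.

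Of the 8 co-chaperone genes, 2 rose in Sel1l CKO DN3 thymocytes, Dnajb11 and Dnajc3, each by over 2-fold, and 0 fell. The call was an adjusted p under 0.05 in a limma fit over the 10177 genes tested, of which 2.96% were called higher and 0.894% lower in CKO. The same 2 genes were the members whose genotypes did not overlap, with every CKO library above every control library, as held for 7.4% of all tested genes. For 0 members did every CKO library lie below every control library, a pattern held by 6.32% of tested genes. The median log2 fold change of the 8 genes was 0.13, with a range of −0.13 to 1.23, beside a median of −0.01 over all tested genes. The other 6 genes did not pass, and for each the interval of its difference is given with its values. The plot of values by library shows the 8 genes on their own axes.

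**Figure D1:**
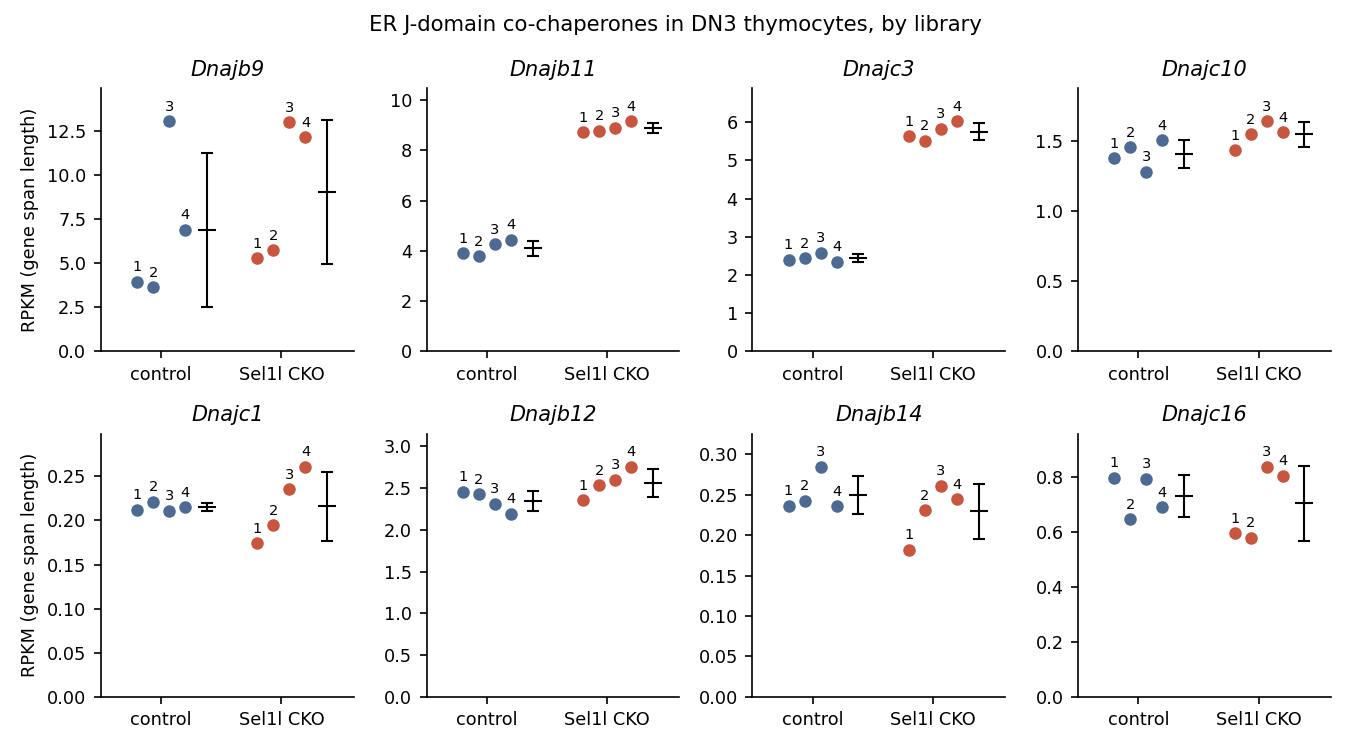
RPKM of the 8 ER J-domain co-chaperone genes (y axis, from 0, RPKM on gene span) in control (blue) and Sel1l CKO (red) DN3 thymocytes, 1 point per library with its replicate number and, to the right of the points, the mean ± SD (n = 4). Dnajb11 and Dnajc3 are separated by genotype, with control at most 4.44 and 2.59 RPKM and CKO at least 8.72 and 5.52 RPKM, and the genotypes overlap for the other 6 genes.

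Dnajb11 encodes ERdj3, a soluble lumenal J protein that binds unfolded clients directly and hands them to BiP. The gene (ENSMUSG00000004460.17) lies on the plus strand of chromosome 16, 22857845 to 22879634 (GRCm38). It measured 3.92, 3.80, 4.28 and 4.44 RPKM in the control libraries and 8.72, 8.79, 8.91 and 9.16 RPKM in the CKO libraries. Every CKO library was far above the highest control library, and the CKO libraries lay closer to each other than the control libraries did. The mean rose from 4.11 ± 0.301 to 8.89 ± 0.195 RPKM (SD, n = 4 each), 2.17-fold. The log2 fold change was 1.12 (SE 0.07, 95% interval 0.96 to 1.27, limma adjusted p = 4.22e-05), which placed Dnajb11 at rank 14 of the tested genes by p and at rank 108 by fold change. The exact two-sided permutation test over the 70 assignments of 8 libraries gave p = 0.0286, the smallest it can give. Between 3279 and 9651 reads stood behind each value, and the call was kept in each of the 8 fits that left out 1 library (adjusted p 2.25e-04 to 3.80e-04). An antisense gene, Gm30505, overlaps Dnajb11, and whether counting used the strand is not stated.

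Dnajc3 encodes P58IPK, also called ERdj6, a lumenal J protein whose tetratricopeptide repeats hold misfolded clients for BiP and which was first described as an inhibitor of eIF2α kinases. The gene (ENSMUSG00000022136.8) lies on the plus strand of chromosome 14, 118937976 to 118981697 (GRCm38). Its values were 2.40, 2.43, 2.59 and 2.35 RPKM in the control libraries and 5.63, 5.52, 5.83 and 6.03 RPKM in the CKO libraries. The lowest CKO value stood more than 2-fold above the highest control value, and the spread within a genotype was small. The mean rose from 2.44 ± 0.103 to 5.75 ± 0.225 RPKM, 2.35-fold. With a log2 fold change of 1.23 (SE 0.06, 95% interval 1.09 to 1.37, limma adjusted p = 1.46e-05), Dnajc3 had the largest rise of the 8 genes, at rank 8 by p and 93 by fold change. Its interval overlaps that of Dnajb11, and the difference between the rises was not tested. The exact permutation p was again 0.0286, 3882 to 12174 reads stood behind each value, and leaving out single libraries gave adjusted p of 6.46e-05 to 1.92e-04.

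The promoter windows of the 8 genes, from 250 bases before to 50 after the start in RefSeq (GRCm38.p6), were searched on both strands for letters of known UPR elements. The elements were chosen with the expression results known. The ER stress response element (ERSE) was searched as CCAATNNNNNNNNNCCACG, ERSE-II as ATTGGNCCACG, the UPR element (UPRE) as TGACGTGG, and the C/EBP-ATF response element (CARE) as TGATGNAA. ERSE and ERSE-II end in the same 5 letters, and UPRE ends in their reverse complement. Among all 32851 windows, 0.119% held ERSE, 0.0365% ERSE-II, 0.676% UPRE and 3.97% CARE. Of the 8 genes, 2 held a full match of ERSE or ERSE-II, and they were the 2 that rose: Dnajc3 held ERSE at bases −105 to −87 from its start and Dnajb11 held ERSE-II at bases 8 to 18. No UPRE or CARE was found in these letters in any of the 8 windows. In the other 6 windows the closest stretch to ERSE or ERSE-II had at least 2 mismatches. The same search of the BiP cycle genes and other ER J proteins described below gave ERSE in Hspa5 and Hsp90b1, both higher in CKO. It gave no match in Sdf2l1, Hyou1 or Hspa13, which also rose, nor in Sil1 or Sdf2, which did not pass. Of the other ER J proteins, Dnajc25 held a UPRE and did not pass. A match is a description of the letters and no evidence of binding. The stretches are shown with that of Hspa5, which held ERSE at bases −65 to −47. They are written 5′ to 3′ on the plus strand, with the element in capitals, and cover chr14:118937797-118937875 for Dnajc3, chr16:22857822-22857864 for Dnajb11 and chr2:34771995-34772073 for Hspa5.
Dnajc3: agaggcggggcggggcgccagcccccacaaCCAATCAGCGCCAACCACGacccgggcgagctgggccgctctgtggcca
Dnajb11: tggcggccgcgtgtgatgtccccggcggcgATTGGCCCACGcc
Hspa5: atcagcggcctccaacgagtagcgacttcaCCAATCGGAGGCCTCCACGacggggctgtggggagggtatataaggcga

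Dnajb9 varied more between libraries of 1 genotype than between genotypes. It encodes ERdj4, a lumenal J protein that takes misfolded proteins to ERAD, recruits BiP to the sensor IRE1 and is widely used as a readout of spliced XBP1. The gene (ENSMUSG00000014905.4) lies on the minus strand of chromosome 12, 44205559 to 44210326 (GRCm38). It measured 3.97, 3.65, 13.1 and 6.91 RPKM in the control libraries and 5.31, 5.74, 13.0 and 12.2 RPKM in the CKO libraries. The highest library of the 8 was a control, and control replicate 3 equalled the highest CKO libraries. Means were 6.90 ± 4.37 RPKM in control and 9.06 ± 4.10 RPKM in CKO, a log2 fold change of 0.47 (SE 0.45, limma adjusted p = 0.590, exact permutation p = 0.4). The 95% interval, −0.56 to 1.50, spans folds of 0.677 to 2.83, so neither no change nor a rise of the size seen for Dnajb11 and Dnajc3 lies outside it. Each value rested on 673 to 1921 reads.

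Much of the spread of Dnajb9 lay between replicates 1 and 2 on one side and replicates 3 and 4 on the other, a split that the labels do not name and that was known from earlier results on these data. On the log2 scale replicates 3 and 4 exceeded replicates 1 and 2 by 1.32 in control and by 1.19 in CKO. Within replicates 1 and 2 the CKO exceeded control by 0.53, and within replicates 3 and 4 by 0.40. With this split as a term, the limma fit gave the same log2 fold change with an adjusted p of 0.152. For comparison, replicates 3 and 4 exceeded 1 and 2 by 0.18 in control and 0.05 in CKO for Dnajb11, and by 0.03 and 0.09 for Dnajc3, on the same scale, so the 2 genes that rose barely moved with the split. Their rises within the 2 sets were 1.18 and 1.05 for Dnajb11 and 1.20 and 1.26 for Dnajc3.

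Some transcripts were picked out from these same values for moving with Dnajb9 across the libraries. Among the tested genes the 3 whose profile over the 8 libraries was nearest to that of Dnajb9, by root mean square difference of log2 values from the control mean, were Bhlhe40 (0.26), Irs2 (0.29) and Tnfsf11 (0.30). These 3 were selected by that likeness, so their agreement with Dnajb9 follows from the selection. The nearest genes to Dnajb11 and Dnajc3 were closer, at 0.067 and 0.065. Bhlhe40 encodes a basic helix-loop-helix repressor, Irs2 an adaptor of insulin receptor signalling, and Tnfsf11 the cytokine RANKL. The summed level of 8 immediate early genes, such as Fos, Jun and Egr1, which cells induce within minutes of stimulation, was 430, 379, 1576 and 1496 RPKM in control and 274, 182, 527 and 600 RPKM in CKO. It was thus higher in replicates 3 and 4 of both genotypes, where Dnajb9 was higher too. The early activation marker Cd69, singled out after its values were seen, measured 1.90, 1.64, 18.1 and 5.66 RPKM in control and 0.922, 2.01, 8.36 and 8.99 RPKM in CKO. The list of later thymocyte markers that holds Cd69 summed to 5.86 to 21.9 RPKM in control and 4.95 to 13.2 RPKM in CKO. Without Cd69 it summed to 3.82 to 4.73 and 4.03 to 5.52 RPKM, with control replicate 3 the lowest. The part of these differences in the Dnajb9 values was not tested.

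**Figure D2:**
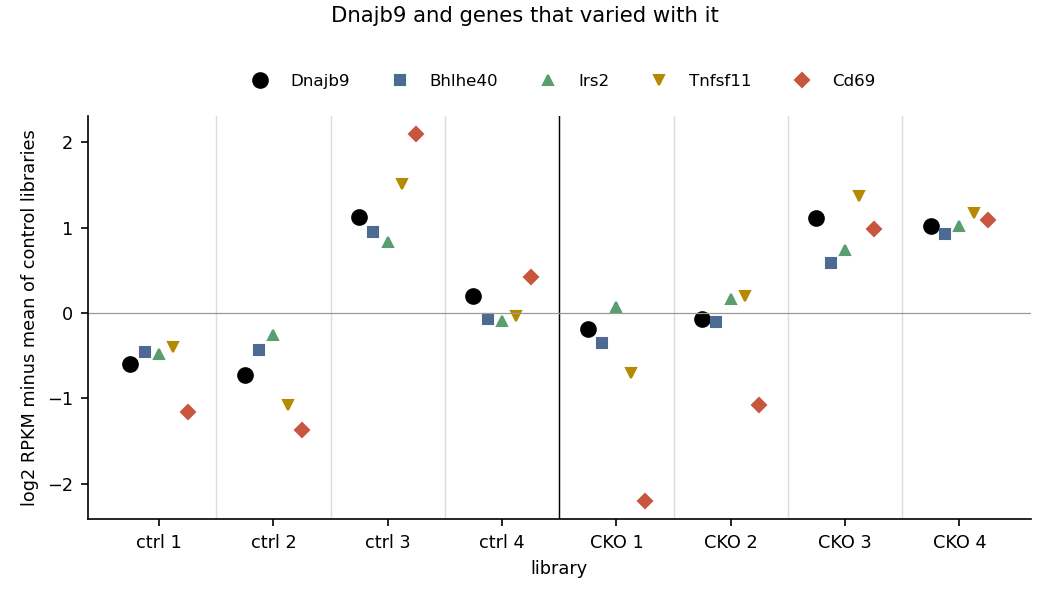
Log2 RPKM of Dnajb9, of its 3 nearest profiles Bhlhe40, Irs2 and Tnfsf11, and of Cd69 (y axis, each minus its mean over the 4 control libraries) in each of the 8 libraries (x axis, ctrl for control). Dnajb9 is highest in control replicate 3 and in CKO replicates 3 and 4, at 12.2 to 13.1 RPKM, and the other 4 genes are also above their control mean in these libraries. These 4 were chosen from the same values, 3 by their profile and Cd69 after its values were seen, so the likeness follows from the selection.

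Dnajc10 and Dnajc1 also encode proteins with a lumenal J domain, and neither gene passed the test. Dnajc10 (ENSMUSG00000027006.13, chromosome 2, 80315466 to 80354043, plus strand of GRCm38) encodes ERdj5, a disulfide reductase with thioredoxin-like domains that opens misfolded glycoproteins for ERAD. It measured 1.38, 1.46, 1.28 and 1.51 RPKM in the control libraries and 1.43, 1.55, 1.64 and 1.57 RPKM in the CKO libraries. CKO replicate 1 lay within the control range and the other CKO libraries just above it. The log2 fold change was 0.14 (SE 0.08, limma adjusted p = 0.363, exact permutation p = 0.0857), and its interval of 0.973 to 1.24-fold leaves out a rise of the size of Dnajb11 or Dnajc3.

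Dnajc1 encodes ERdj1, a membrane protein with a lumenal J domain and a cytosolic part that binds translating ribosomes. The gene (ENSMUSG00000026740.12, chromosome 2, 18195654 to 18392830, minus strand of GRCm38) is the longest of the 8. It measured 0.212, 0.221, 0.211 and 0.215 RPKM in the control libraries and 0.174, 0.195, 0.235 and 0.261 RPKM in the CKO libraries. Control libraries were tightly grouped, and the CKO libraries lay on both sides of them. The log2 fold change was −0.01 (SE 0.15, fold interval 0.790 to 1.25, limma adjusted p = 0.985, exact permutation p = 1), with −0.22 within replicates 1 and 2 and 0.21 within replicates 3 and 4. Its sign changed with the scaling of the libraries, so no direction is given. Mllt10, another gene of the table, overlaps Dnajc1 on the opposite strand.

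Dnajb12, Dnajb14 and Dnajc16 encode membrane J proteins, and 0 of the 3 passed. Dnajb12 and Dnajb14 are related proteins whose J domain faces the cytosol, where they work with Hsc70 in the degradation of membrane proteins, and DNAJC16 (ERdj8) is a membrane protein linked to autophagosome size. Dnajb12 (ENSMUSG00000020109.13, chromosome 10, 59879556 to 59899302, plus strand of GRCm38) measured 2.46, 2.43, 2.31 and 2.19 RPKM in the control libraries and 2.35, 2.53, 2.60 and 2.76 RPKM in the CKO libraries. The CKO values were mostly higher, with CKO replicate 1 inside the control range. The log2 fold change was 0.12 (SE 0.07, fold interval 0.972 to 1.22, limma adjusted p = 0.382, exact permutation p = 0.114), and the difference lay in replicates 3 and 4 (0.25), not in replicates 1 and 2 (−0.00).

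Dnajb14 (ENSMUSG00000074212.7, chromosome 3, 137867675 to 137916557, plus strand of GRCm38) measured 0.237, 0.243, 0.285 and 0.236 RPKM in the control libraries and 0.182, 0.231, 0.261 and 0.244 RPKM in the CKO libraries. Control replicate 3 stood above its group and CKO replicate 1 below, and the genotypes overlapped. The log2 fold change was −0.13 (SE 0.14, fold interval 0.733 to 1.15, limma adjusted p = 0.651, exact permutation p = 0.429), on 337 to 569 reads per library, the fewest of the 8 genes. Dnajc16 (ENSMUSG00000040697.10, chromosome 4, 141760189 to 141790931, minus strand of GRCm38) measured 0.797, 0.645, 0.794 and 0.691 RPKM in the control libraries and 0.596, 0.579, 0.838 and 0.805 RPKM in the CKO libraries. Its CKO libraries fell into a lower pair (replicates 1 and 2) and a higher pair (replicates 3 and 4), on either side of the control mean. The log2 fold change was −0.07 (SE 0.15, fold interval 0.759 to 1.20, limma adjusted p = 0.825, exact permutation p = 0.657), with −0.28 within replicates 1 and 2 and 0.15 within replicates 3 and 4. The upper bound of the interval of each of these 3 genes lies under the lower bound for Dnajb11. For Dnajb14 and Dnajc16 the sign changed with limma array weights, so no direction is given.

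RPKM here divide reads by the gene span with introns, so levels of different genes were compared after dividing the recovered reads by the length of the merged exons of GENCODE M21, as reads per kb of exon per 1000000 reads on genes. On this scale Dnajb11 was the most abundant of the 8 transcripts in both genotypes, at 27.7 ± 2.03 in control and 59.9 ± 1.32 in CKO. Dnajc3 came next, at 20.8 ± 0.873 and 49.0 ± 1.91. Dnajb12 (13.8 ± 0.711 and 15.0 ± 0.983), Dnajb9 (11.3 ± 7.16 and 14.8 ± 6.71) and Dnajc10 (10.8 ± 0.761 and 11.9 ± 0.665) formed a middle group in which neighbours overlapped. Dnajc1 (3.64 ± 0.0781 and 3.66 ± 0.662) and Dnajc16 (3.46 ± 0.358 and 3.33 ± 0.642) overlapped each other at a lower level. Dnajb14 was the least abundant, at 0.776 ± 0.0728 in control and 0.713 ± 0.106 in CKO, below every library of the other 7 genes. The order of the means was the same in both genotypes, and the 2 genes that rose had the 2 highest means in control. The merged exons of all annotated transcripts ran from 2549 bases for Dnajb9 to 11651 for Dnajc1 and 15741 for Dnajb14. The order, and the sums and shares on this scale, depend on these lengths. In control, Dnajb9 ranged from 5.98 to 21.4 and its highest library lay within the range of Dnajc3, so the second place of Dnajc3 there holds for the means only.

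The sum of the 8 transcripts on the exon scale was 92.2 ± 8.55 in control (85.3 to 104) and 158 ± 12.2 in CKO (147 to 170), without overlap. Dnajb11 and Dnajc3 together made up 52.7% of it in control (48.9% to 54.3%) and 69.0% in CKO (65.4% to 72.8%). The fold change of BiP exceeded that of each of them, a difference that was not tested. Hspa5 was at 142 ± 27.6 in control and 496 ± 65.3 in CKO on the exon scale, a log2 fold change of 1.82 in RPKM (SE 0.15, limma adjusted p = 2.25e-04). The Hspa5 level per summed level of the 8 co-chaperones was 1.53 in control (1.29 to 1.69) and 3.13 in CKO (2.75 to 3.32). The sum includes Dnajb12 and Dnajb14, whose J domain faces the cytosol, so it is not a ratio of BiP to its lumenal partners alone.

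Taken gene by gene, the log2 ratio of a member to Hspa5 in the same library, which does not depend on how the libraries are scaled, was lower in every CKO library than in every control library for each of the 8 genes. The drop was smallest for Dnajc3 (−0.58) and Dnajb11 (−0.70) and larger for Dnajb9 (−1.35), Dnajc10 (−1.68) and Dnajb12 (−1.69). It was largest for Dnajc1 (−1.83), Dnajc16 (−1.89) and Dnajb14 (−1.95). The 8 ratios share Hspa5 as denominator and are a description, not 8 separate results. Hspa5 ranked 47 of the 10177 tested genes by fold change, and the mean ratio to it falls for any gene that rose less. The drop in all 8 was thus largely set by the denominator, and the share of all genes with it was not computed.

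**Figure D3:**
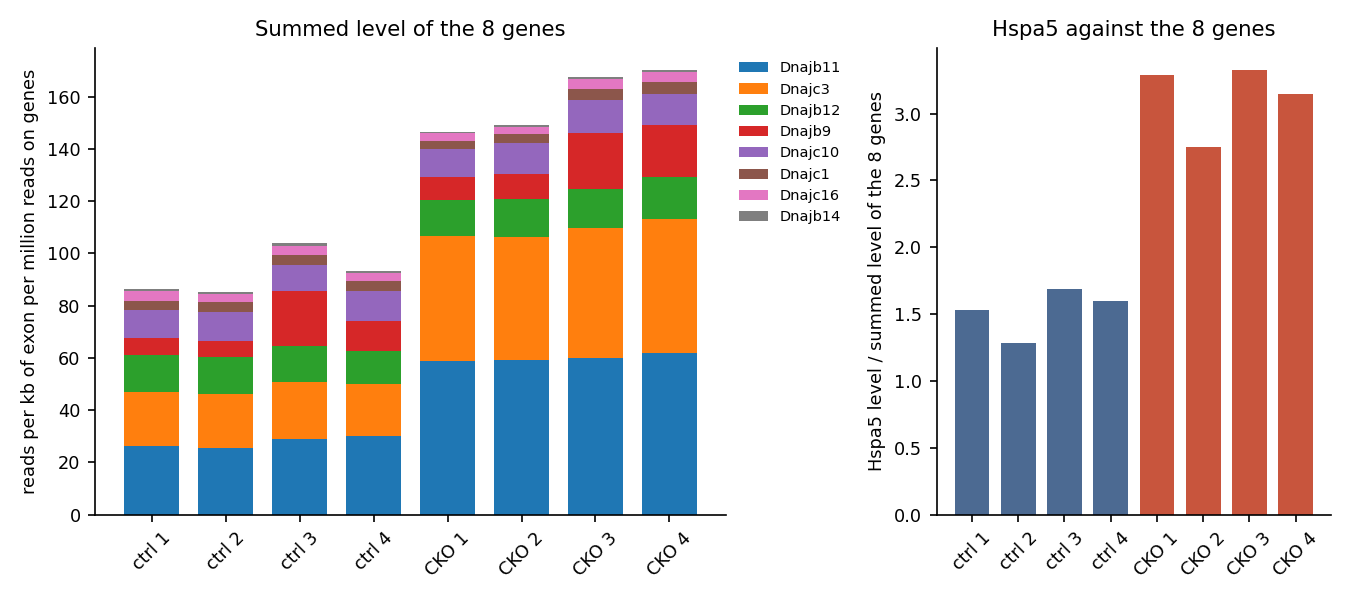
Left, the level of the 8 ER J-domain co-chaperone transcripts in each library, stacked (y axis, reads per kb of exon per 1000000 reads on genes), and right, the Hspa5 level divided by that sum (y axis, ratio), with ctrl for control. The sum is 85.3 to 104 in control and 147 to 170 in Sel1l CKO, mostly through Dnajb11 and Dnajc3, and the ratio is 1.29 to 1.69 in control and 2.75 to 3.32 in CKO. The sum includes Dnajb12 and Dnajb14, whose J domain faces the cytosol.

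Most other parts of the BiP cycle rose as well. Of 7 listed genes, 5 passed, all higher, where 2.96% of all tested genes were called higher. The median log2 fold change over the 7 was 1.36, and these 5 calls were kept in each fit that left out 1 library. Beside Hspa5 they were Sdf2l1, whose product forms a complex with ERdj3 (2.52, adjusted p 1.14e-06 by limma), and the nucleotide exchange factor Hyou1 (2.05). Hsp90b1, the ER Hsp90 called GRP94 (1.36), and the Hsp70-like Hspa13 (1.02) were the others. The second exchange factor, Sil1 (0.27, limma adjusted p = 0.424), and Sdf2, the paralog of Sdf2l1 that binds ERdj3 in the same way (−0.00, limma adjusted p = 0.994), did not pass.

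Of 4 other J proteins of the ER membrane, 0 passed. Sec63, the J protein of the protein import channel, was at 0.33 (95% interval 0.03 to 0.62, limma adjusted p = 0.209) and passed only with array weights, Dnajc25 at 0.41 (adjusted p 0.431), Dnajc14 at 0.06 and Dnajc18 at 0.00. Of 28 J proteins outside the ER, 27 were tested, 0 rose and 1 fell, with a median log2 fold change of −0.01. Every CKO library lay above every control library for 2 of them, Gak and Dnajc19, as held for 7.4% of tested genes. For 2, Dnaja1 and Dnajb1, every CKO library lay below, as held for 6.32% of tested genes. Dnajb1, at −0.89, did not pass (limma adjusted p = 0.125). The gene that fell was Dnaja1, a cytosolic J protein (−0.54, limma adjusted p = 0.0266). Its call was kept without control replicate 2 or 3 and lost without each of the other 6 libraries (0.0531 to 0.0666). Cytosolic heat shock transcripts, a list that holds Dnaja1, summed to 1397 to 4366 RPKM in control and 1214 to 1375 RPKM in CKO. Hspa8 alone measured 917 to 1402 RPKM. Of the 11 genes 5 passed, all lower, where 0.894% of tested genes did, and the median log2 fold change was −0.70. Hspa1a, at −5.26, measured 16.1 to 1059 RPKM in control and 2.14 to 7.18 RPKM in CKO. Its call (limma adjusted p = 0.0473) was kept in 1 of the 8 fits that left out 1 library. The part of these transcripts in the fall of Dnaja1 was not tested. Among all 39 tested J proteins of the lists, 2 rose, where 2.96% of all tested genes did, and both were lumenal partners of BiP. Whether a rise depended on the location of the protein was not tested.

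**Figure D4:**
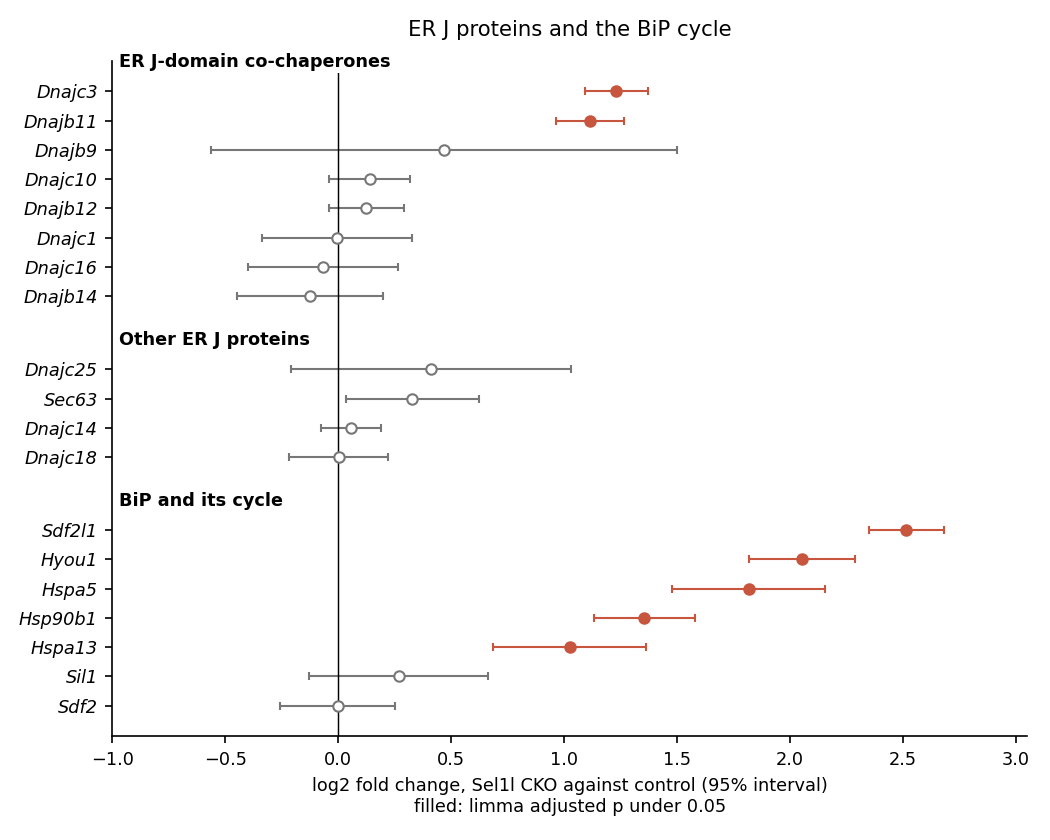
Log2 fold change of Sel1l CKO against control (x axis, log2(RPKM + 0.01) scale, limma estimate with 95% interval) for the 8 co-chaperone genes, 4 other ER J proteins and 7 genes of the BiP cycle. Filled points passed the adjusted p of 0.05, which held for Dnajc3 and Dnajb11, for 0 of the 4 other ER J proteins and for 5 of the 7 genes of the BiP cycle.

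The UPR and ERAD lists were chosen with earlier results of these data known, and of all tested genes 2.96% were called higher and 0.894% lower. Among the upstream genes of the UPR, 5 of 7 were higher, namely Ddit3 (1.37), Atf4 (0.90), Atf6 (0.89), Xbp1 (0.69) and Eif2ak3, which encodes PERK (0.63). Ern1, which encodes IRE1α (−0.11), and Atf6b (0.25) did not pass. With any 1 library left out, Ddit3 and Atf4 remained past the threshold, and 2 to 5 of the 7 passed, with 2 left without control replicate 1, 3 or 4 or CKO replicate 3 or 4. With the replicate number as a block, or without a filter on low values, 3 of the 7 passed. Of the 15 ERAD partners, 5 were higher, namely Derl3, Herpud1, Syvn1, Edem2 and Derl1, and 1, Sel1l, was lower. All of these but Derl1 and Sel1l were kept with any 1 library left out, and Derl1 was kept without control replicate 3 or CKO replicate 2 and lost in the other 6 fits (0.0548 to 0.0765). Syvn1, which encodes the SEL1L partner HRD1 (1.24), and Herpud1, an ERAD scaffold (2.06), had fold changes at or above that of Dnajc3, with the differences not tested.

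The genes with the nearest profiles to Dnajb11 were Pdia3 (root mean square difference 0.067), Uap1 (0.068) and Calr (0.092). Those nearest to Dnajc3 were Pdia3 (0.065), Calr (0.067) and Sec61b (0.087). Pdia3 and Calr encode a disulfide isomerase and the lectin chaperone calreticulin, which act together on glycoproteins, Uap1 an enzyme that makes UDP-GlcNAc, and Sec61b a subunit of the import channel. Dnajb11 and Dnajc3 therefore shared 2 of their 3 nearest genes. For the 5 members that neither rose nor spread widely, the nearest profiles had log2 fold changes between −0.16 and 0.14, and 0 of these genes passed the test. The profiles hold the genotype difference, so the similar fold changes of neighbours and the shared neighbours follow largely from the selection.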

How the data were processed

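RNA-seq values of 4 control and 4 Sel1l CKO libraries of sorted DN3 thymocytes were analysed. The authors prepared stranded mRNA libraries, aligned paired reads with STAR 2.5.2b, used HTSeq (version given as 2.7) to count reads per protein-coding gene and deposited RPKM values, 1 column per library. Their own test, DESeq2 on counts, was not used here. The steps of low RPKM values matched the gene spans of GENCODE M21 (GRCm38), introns included. The read total of each library was estimated from the same steps. Of 15643 genes with a span and a value, 12004 (76.7%) were whole reads in every library within 0.05 reads. A further 3814 lengths, those of Dnajb9 and Dnajc3 among them, were solved from the values. Reads were thus recovered for 15818 genes (99.8% of those with a value), which hold 94.92% to 98.21% of each library.

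The 10177 genes averaging 0.1 RPKM or more were tested on log2(RPKM + 0.01) with limma 3.58.1 (R 4.3.3), a mean-variance trend and only genotype in the model, two-sided, with Benjamini-Hochberg adjustment over all tested genes. The low filter and pseudocount were set because division by the span lowers the RPKM of long genes. Fold changes are on the log2(RPKM + 0.01) scale and fold intervals are their powers of base 2. Errors of levels are SD over 4 libraries. Whether the libraries are separate mice is not stated in the labels. The paper gives n = 4 for this experiment and defines n as independent biological replicates unless a legend says otherwise. The limma p-values set the genotype difference against the spread between these libraries, moderated over all tested genes. Single genes were also tested by exact permutation. Replicate pairs differed by more than counting noise. Python 3.11.15 with numpy 2.4.6, pandas 2.3.3, scipy 1.17.1 and matplotlib 3.10.9 was used for the rest. Every member is named, with Sel1l, genes of the related lists and the 3 nearest profiles of each member. The members and lists were chosen with earlier results of these data known. Alternatives were other pseudocounts, filters, scalings and limma settings, a replicate block, a batch term, voom on the recovered reads (10 or more per gene on average) and each library left out.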

Additional observations from a re-analysis of the deposited data

Results flagged for a closer look

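Dnajb14 in control replicate 3 stood apart from its group, at 0.285 RPKM beside 0.236 to 0.243 RPKM in the other 3 control libraries. The gap took 0.859 of the range of the group, above Dixon's 95% critical value for 4 samples. It was 1 of 20 groups compared, and chance flags about 1 in 20. Dnajb9 was not singled out by this measure in either genotype, although its highest control library, at 13.1 RPKM, stood well above the next, at 6.91 RPKM.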

How the results depend on the processing

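The calls for Dnajb11 and Dnajc3 were kept under all 12 other settings and all 8 fits without 1 library, with log2 fold changes of 0.96 to 1.15 and 0.97 to 1.27, and 0 members were lower in any. A mean RPKM of at least 1 leaves Dnajc1, Dnajb14 and Dnajc16 untested. Dnajb9 ranged from 0.40 to 0.98 over the 12 settings and from 0.23 to 0.84 without single libraries, never past the threshold. Dnajc1 turned positive with a pseudocount of 1 (0.0012), median-of-ratios scaling (0.0001), quantile normalization (0.0713) and array weights (0.114), and ranged from −0.0989 to 0.0865 without single libraries. Array weights also turned Dnajb14 (0.0025) and Dnajc16 (0.106), which ranged from −0.157 to 0.0183 without single libraries. Of all genes, 392 passed (301 higher, 91 lower) and 2007 had an unadjusted p under 0.05. With array weights 665 passed (465 higher, 200 lower). The count lower was 54 without a filter, 214 with the batch term and 162 with voom. Without single libraries 237 to 346 passed, 28 to 86 of them lower, with the fewest lower genes without control replicate 3. Why these counts moved was not tested. With the replicate number as a block 278 genes passed (215 higher, 63 lower) and 2 members were higher. Deviations of libraries with the same number correlated at 0.056 to 0.220, and not every library correlated best with its own number, so the numbers were not taken as pairs. The Sel1l call was lost under the block (limma adjusted p 0.0900), without a filter (0.0859) and without the trend (0.0529). Dnajb14 had the fewest reads, 337 to 569 per library.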
